A study of Mus musculus with 8 samples.

Results

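The genes described here encode 10 subunits of the Polycomb repressive complexes: Ezh1, Ezh2, Eed, Suz12, Jarid2 and Mtf2 of Polycomb repressive complex 2 (PRC2), and Rnf2, Ring1, Bmi1 and Cbx7 of Polycomb repressive complex 1 (PRC1). They were chosen by name, as every non-control probe whose gene name on the array was one of these symbols, which gave 16 of the 39429 probes on the array. Of these 16 probes, 13 were above background by the filter used here, and every gene kept at least 1 probe. Each gene was represented by its brightest probe, called the lead probe below, and the other probes of the 10 subunits are given beside it. Genes of the other lists were read at their lead probe only, and further probes that some of them have are not reported here.

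Expression was measured in E14 cells, a feeder-free mouse embryonic stem cell (ESC) line grown with serum and LIF, 72 hours after infection with lentiviruses carrying short hairpin RNAs. The 8 arrays made up 4 groups, each with biological replicates A and B: control KD (a hairpin against EGFP), Tip60 KD, Hdac6 KD and double KD, in which both genes were knocked down (KD, knockdown). All groups, control KD included, were infected with a lentivirus. The comparisons ask how Polycomb subunit mRNAs changed when the acetyltransferase Tip60 (gene Kat5), the deacetylase Hdac6, or both were depleted. The study's methods list a single hairpin for each gene. Depletion of the target and other effects of its hairpin therefore cannot be told apart on these arrays.

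Polycomb proteins keep developmental genes silent in ESCs. PRC2 methylates histone H3 at lysine K27 through Ezh2 or its paralog Ezh1, which need Eed and Suz12 for activity, and accessory subunits such as Jarid2 and Mtf2 help to bring the complex to its targets. PRC1 ubiquitylates histone H2A through Rnf2 (also called Ring1b) or Ring1, with a Pcgf protein such as Bmi1 as partner, and its canonical form reads methylated H3 through a chromodomain protein such as Cbx7.

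Each replicate letter was a separate slide and scan that held 1 array of every group, so the knockdown and its control can be compared within a slide. Each group had a fixed place on its slide, so place and group cannot be told apart. Spots well above background numbered from 21896 to 40609 of 43020 per array, lowest on control KD array B, and no lead probe was saturated. The control array had the fewest such spots on each slide. It had 31179 on slide A, against 39622 to 40609 on the knockdown arrays. On slide B it had 21896, against 27056 after Tip60 depletion, 27645 after Hdac6 depletion and 40276 after both. A low count and the control group thus cannot be told apart within a slide. The part of this in the differences from control KD was not tested. The targeted genes were depleted: Kat5 signal was 39.2% of control in Tip60 KD and 40.4% in double KD, and Hdac6 signal was 17.8% of control in Hdac6 KD and 27.3% in double KD (adjusted p of 0.00102, 0.00181, 0.00035 and 0.000738, limma). Hdac6 signal was also 73.9% of control in Tip60 KD (adjusted p = 0.00592, limma). All 10 ES cell markers looked at were above background, and the summed scaled signal of the 7 with a value on every array ranged from 315 to 316 in control KD, 329 to 333 in Tip60 KD, 303 on both arrays of Hdac6 KD and 321 to 336 in double KD. The largest term of this sum was Dppa5a, so it says little of the dimmer markers. The log2 differences of the 10 markers from control KD ranged from -0.24 to 1.01 in Tip60 KD, where Pou5f1 was highest. They ranged from -0.18 to 0.59 in Hdac6 KD and from -0.35 to 0.64 in double KD.

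Levels below are log2 of the processed signal divided by the 75th percentile of its array (log2 scaled signal), so that 0 is the level of the 75th percentile and -2.71 is the floor below which signals were not distinguished. Differences are log2 differences from control KD with the standard error (SE) of the limma fit over all 22594 probes that passed the filter, and a probe was called when its Benjamini-Hochberg adjusted p over those probes was under 0.1. Levels of different probes were not compared with each other. Whether the arrays of the groups overlap is given as a description. With only replicates A and B in each group, groups can often lie apart without a difference. The share of all probes for which they do was not counted.

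In Tip60 KD, 6 of the 10 subunits were called, 4 lower (Ezh1, Ezh2, Suz12 and Mtf2) and 2 higher (Jarid2 and Bmi1). Among all probes, 40.6% were called in this comparison, 20.8% higher and 19.8% lower. In Hdac6 KD, 5 of 10 were called, 3 lower (Ezh1, Suz12 and Mtf2) and 2 higher (Jarid2 and Bmi1), against 30.0% of all probes, 14.9% higher and 15.1% lower. In double KD, 6 of 10 were called, 4 lower (Ezh1, Ezh2, Suz12 and Mtf2) and 2 higher (Jarid2 and Bmi1), against 33.8% of all probes, 16.8% higher and 17.0% lower. The median log2 difference of the 10 lead probes was -0.29 for Tip60 KD, -0.15 for Hdac6 KD and -0.21 for double KD, beside medians of 0.07, 0.04 and 0.06 over all probes. The 3 comparisons share the control KD arrays. With the slide as a block, which pairs arrays of the same slide, 10, 8 and 8 subunits were called in the same order, and the shares of all probes called rose as well, to 61.0%, 53.4% and 55.9%.

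**Figure D1:**
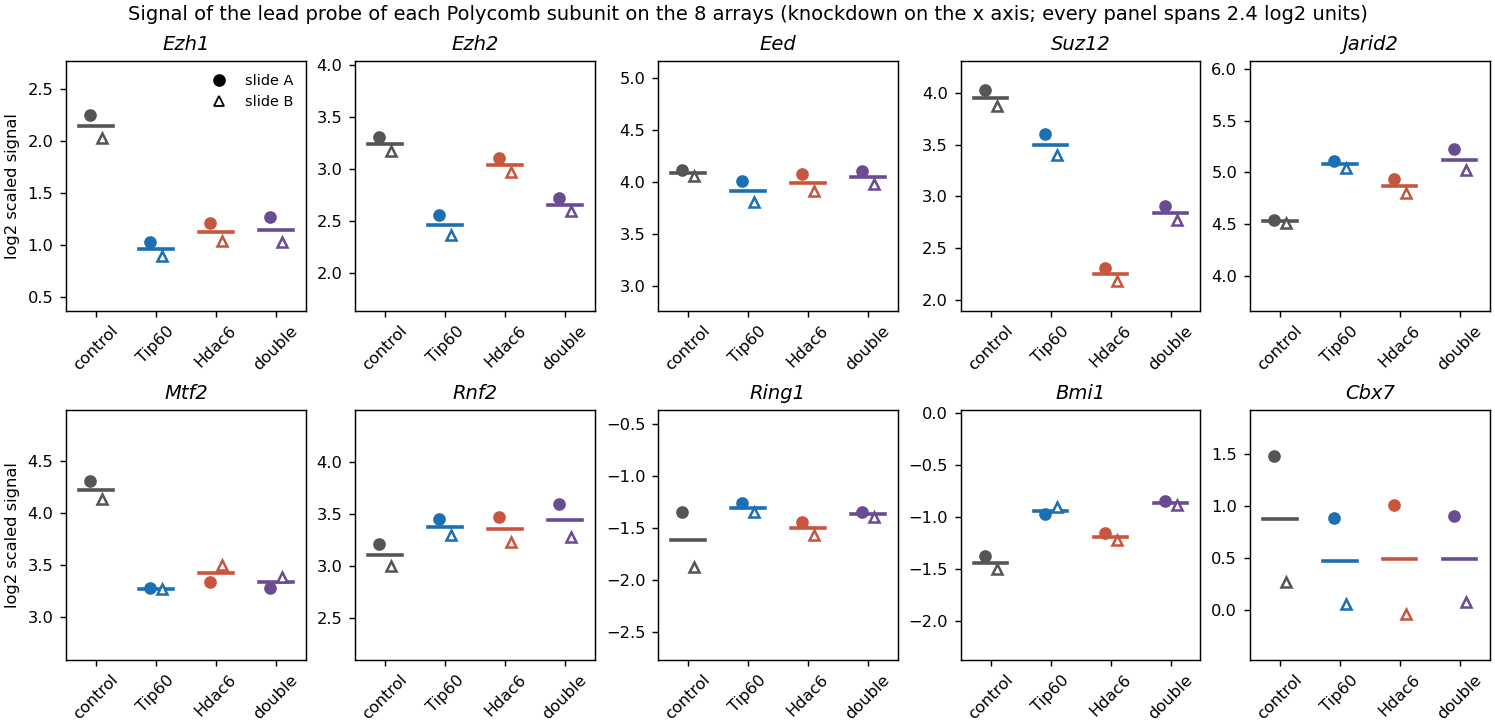
Log2 scaled signal (y axis) of the lead probe of each subunit in the 4 groups (x axis), with filled circles for slide A, open triangles for slide B and a line at the mean of each group. Ezh1 and Mtf2 sit lower in all 3 knockdowns than in control KD, Suz12 is lowest in Hdac6 KD, and the 2 slides stand far apart for Cbx7.

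The promoters shown here are those of the genes whose lead probes were called in all 3 knockdowns in 1 direction. They are the promoters of Ezh1, Suz12 and Mtf2 (at its lead probe only), which fell, and of Jarid2 and Bmi1, which rose. Each is the 250 bases before the annotated start of the gene, 5′ to 3′ on the strand of the gene, from RefSeq (GRCm38.p6), while the probe coordinates further below are those of the array design (mm9). The regions are chr11:101226464-101226713 (minus strand) for Ezh1, chr11:79992856-79993105 (plus strand) for Suz12, chr5:108065424-108065673 (plus strand) for the first of 2 annotated starts of Mtf2, chr13:44730524-44730773 (plus strand) for the first of 2 annotated starts of Jarid2 and chr2:18676768-18677017 (plus strand) for Bmi1. Capitals mark any match to 4 motifs, searched by their letters on both strands: the E2F boxes TTTCCCGC and TTTGGCGC, the E-box CACGTG and the CCAAT box, no 2 of which overlap at any match printed.
Ezh1: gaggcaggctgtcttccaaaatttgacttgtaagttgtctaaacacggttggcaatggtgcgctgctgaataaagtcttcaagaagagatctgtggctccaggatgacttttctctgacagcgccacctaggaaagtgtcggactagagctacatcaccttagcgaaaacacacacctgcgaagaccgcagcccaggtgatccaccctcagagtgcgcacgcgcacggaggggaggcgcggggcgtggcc
Suz12: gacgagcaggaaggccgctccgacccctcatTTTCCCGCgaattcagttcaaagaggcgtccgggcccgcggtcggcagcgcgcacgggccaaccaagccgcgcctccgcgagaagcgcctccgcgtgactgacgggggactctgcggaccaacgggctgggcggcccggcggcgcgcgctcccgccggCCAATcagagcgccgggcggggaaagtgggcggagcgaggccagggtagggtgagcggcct
Mtf2: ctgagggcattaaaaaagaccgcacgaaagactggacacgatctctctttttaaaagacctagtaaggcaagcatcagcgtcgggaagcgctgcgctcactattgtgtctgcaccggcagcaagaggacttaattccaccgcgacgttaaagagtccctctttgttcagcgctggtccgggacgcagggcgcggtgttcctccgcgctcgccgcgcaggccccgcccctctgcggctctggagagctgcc
Jarid2: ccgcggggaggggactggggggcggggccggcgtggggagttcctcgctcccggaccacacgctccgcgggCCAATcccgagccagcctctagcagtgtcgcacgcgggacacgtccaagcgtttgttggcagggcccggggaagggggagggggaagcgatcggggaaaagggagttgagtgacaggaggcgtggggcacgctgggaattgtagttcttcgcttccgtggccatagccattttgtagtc
Bmi1: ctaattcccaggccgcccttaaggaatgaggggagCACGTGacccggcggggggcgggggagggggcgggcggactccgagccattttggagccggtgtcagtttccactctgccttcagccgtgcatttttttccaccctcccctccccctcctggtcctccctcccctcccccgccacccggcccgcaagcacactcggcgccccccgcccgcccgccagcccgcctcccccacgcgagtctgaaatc

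The Suz12 promoter held the E2F box TTTCCCGC, starting 219 bases before the start site, and a CCAAT box 61 bases before it. Jarid2 held a CCAAT box 179 bases before its first start site, and Bmi1 held an E-box 215 bases before its start site. No match to the 4 motifs lay in the windows of Ezh1 and of the first start of Mtf2, while the window of the second Mtf2 start held a CCAAT box. Of the other subunits, Ezh2 held 3 CCAAT boxes and Cbx7 held 1, while Eed, Rnf2 and Ring1 held no match. Over all 32851 RefSeq promoter windows of this length, TTTCCCGC was present in 0.895%, TTTGGCGC in 0.417%, the E-box in 6.02% and the CCAAT box in 33.8%. The 3 genes whose lead probes fell in every knockdown had no motif of these 4 in common. GC content over the 5 windows printed ranged from 55.2% for Ezh1 to 73.6% for Suz12.

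Suz12, the core PRC2 subunit that stabilises the complex, showed the largest change among the lead probes of the 10 subunits. Its level (probe on chr11:79847251-79847310, plus strand) was 4.02 and 3.87 on the control arrays, 3.60 and 3.40 after Tip60 depletion, 2.32 and 2.18 after Hdac6 depletion, and 2.91 and 2.77 after both, on slides A and B. No pair of groups overlapped, and the order from high to low was control KD, Tip60 KD, double KD and Hdac6 KD on each slide. The log2 difference from control KD was -1.70 (SE 0.11) in Hdac6 KD, which is 30.9% of the control signal (adjusted p = 0.00171, limma). In double KD it was -1.10 (SE 0.11), 46.5% of control (adjusted p = 0.00284, limma), and in Tip60 KD -0.45 (SE 0.11), 73.4% of control (adjusted p = 0.0296, limma). The call in Tip60 KD was lost without control KD array A (log2 difference -0.37, adjusted p = 0.136) and without Tip60 KD array B (log2 difference -0.34, adjusted p = 0.129).

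The knockdowns also differed from each other at Suz12. The signal was higher in Tip60 KD than in Hdac6 KD by 1.25 on the log2 scale (SE 0.11, adjusted p = 0.00336, limma), and this held without any 1 array (differences of 1.15 to 1.35, adjusted p of 0.0117 to 0.0343). Double KD was higher than Hdac6 KD by 0.59 (SE 0.11, adjusted p = 0.0461, limma) and lower than Tip60 KD by a log2 difference of -0.66 (SE 0.11, adjusted p = 0.0661, limma). The difference between double KD and Hdac6 KD lost its call without any 1 of the 4 arrays compared (adjusted p of 0.139 for double KD array B, 0.162 for Hdac6 KD array A, 0.181 for double KD array A and 0.225 for Hdac6 KD array B), and that between double KD and Tip60 KD was lost without any 1 of the 8 arrays (adjusted p of 0.126 to 0.243), where from 0 to 15 probes of the whole array were called. In the fit with the slide as a block the adjusted p-values of these comparisons were 0.00324 and 0.00734.

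Ezh1, the less active paralog of the catalytic subunit, fell in all 3 knockdowns. Its lead probe (chr11:101052430-101052489, minus strand) read 2.25 and 2.04 on the control arrays, 1.03 and 0.89 after Tip60 depletion, 1.22 and 1.04 after Hdac6 depletion, and 1.27 and 1.04 after both. Both control arrays were above all 6 knockdown arrays. Both Tip60 KD arrays lay just below those of Hdac6 KD and double KD, which overlapped with each other. The log2 differences were -1.18, -1.02 and -0.99 (SE 0.13 each) for Tip60, Hdac6 and double depletion, or 44.1%, 49.4% and 50.3% of control (adjusted p of 0.0020, 0.00601 and 0.0052, limma).

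A second Ezh1 probe, chr11:101052680-101052739, moved the same way by less. It read 1.42 and 1.44 on the control arrays, 0.85 and 0.97 after Tip60 depletion, 0.75 and 0.89 after Hdac6 depletion, and 0.70 and 0.77 after both. All control arrays were again above all knockdown arrays, with log2 differences of -0.52, -0.61 and -0.69 (SE 0.09 each), all called. The remaining 2 Ezh1 probes, further from the 3′ end of the gene, did not pass the filter: one was at the floor on 7 of 8 arrays and the other on all 8.

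Ezh2, the main methyltransferase of PRC2 in ESCs, fell when Tip60 was depleted. Its level (probe on chr6:47480307-47480366, minus strand) was 3.31 and 3.17 on the control arrays, 2.56 and 2.37 after Tip60 depletion, 3.11 and 2.97 after Hdac6 depletion, and 2.72 and 2.59 after both. The Tip60 KD and double KD arrays lay below all control and Hdac6 KD arrays, and the control KD and Hdac6 KD arrays did not overlap either. The log2 difference was -0.78 (SE 0.11) in Tip60 KD and -0.59 (SE 0.11) in double KD, or 58.4% and 66.6% of control (adjusted p of 0.00405 and 0.0145, limma).

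In Hdac6 KD the Ezh2 difference was -0.20 (SE 0.11, 95% interval -0.47 to 0.07, adjusted p = 0.260, limma), and it was called with the slide as a block (adjusted p = 0.0274). Tip60 KD was lower than Hdac6 KD by a log2 difference of -0.57 (SE 0.11, adjusted p = 0.0210, limma), which lost its call without Hdac6 KD array A (log2 difference -0.51, adjusted p = 0.115). Double KD was lower than Hdac6 KD by -0.38 (adjusted p = 0.116, limma), and this was called with the slide as a block (adjusted p = 0.00806) and with quantile normalization (adjusted p = 0.0531).

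Eed, the PRC2 subunit that binds methylated H3, was not called in any knockdown. It read 4.12 and 4.06 on the control arrays, 4.01 and 3.81 after Tip60 depletion, 4.08 and 3.91 after Hdac6 depletion, and 4.11 and 3.98 after both (probe on chr7:97103264-97103323, minus strand). The arrays of Hdac6 KD and double KD overlapped with control KD and those of Tip60 KD lay below it. The differences from control KD were -0.18 (95% interval -0.45 to 0.09), -0.10 (-0.36 to 0.17) and -0.04 (-0.31 to 0.22), with adjusted p of 0.280, 0.609 and 0.818 (limma). The double KD difference turned its sign with the normexp background, quantile normalization and the deposited series values. The block by slide gave a call for the Tip60 KD difference (adjusted p = 0.0508).

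Mtf2, a Tudor-domain accessory subunit that helps PRC2 to find CpG-rich DNA, fell in each knockdown at its lead probe (chr5:108537924-108537983, plus strand). The levels were 4.31 and 4.14 on the control arrays, 3.28 and 3.27 after Tip60 depletion, 3.34 and 3.50 after Hdac6 depletion, and 3.28 and 3.39 after both. Control KD was above all 6 knockdown arrays, and double KD overlapped with both single knockdowns. The log2 differences were -0.95, -0.80 and -0.89 (SE 0.10 each), or 51.8%, 57.3% and 53.9% of control (adjusted p of 0.00182, 0.00568 and 0.00354, limma).

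The second Mtf2 probe, upstream on the same strand (chr5:108536045-108536104), is annotated to another Mtf2 transcript and did not follow the lead probe. It read 0.78 and 0.38 on the control arrays, 1.46 and 0.99 after Tip60 depletion, 0.90 and 0.49 after Hdac6 depletion, and 0.85 and 0.44 after both. Both Tip60 KD arrays lay above both control arrays, and those of Hdac6 KD and double KD overlapped with control KD. The difference in Tip60 KD was 0.65 (SE 0.25, adjusted p = 0.108, limma), called with the slide as a block (adjusted p = 0.000382), and in Hdac6 KD and double KD it was 0.11 and 0.07, not called in either fit. The signs of the 2 Mtf2 probes thus differed in Tip60 KD.

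Jarid2, which recruits PRC2 and modulates its activity, was higher in each knockdown. It read 4.54 and 4.52 on the control arrays, 5.11 and 5.05 after Tip60 depletion, 4.93 and 4.80 after Hdac6 depletion, and 5.23 and 5.02 after both (probe on chr13:45016247-45016306, plus strand). All knockdown arrays were above both control arrays. The log2 differences were 0.55, 0.34 and 0.59 (SE 0.10 each), or 146%, 127% and 151% of control (adjusted p of 0.00921, 0.0609 and 0.0102, limma). The call in Hdac6 KD was lost without control KD array A (adjusted p = 0.166), control KD array B (0.187), Hdac6 KD array A (0.223) or Hdac6 KD array B (0.124), and it was also lost with the normexp background (0.149) and without the filter on dim probes (0.108).

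**Figure D2:**
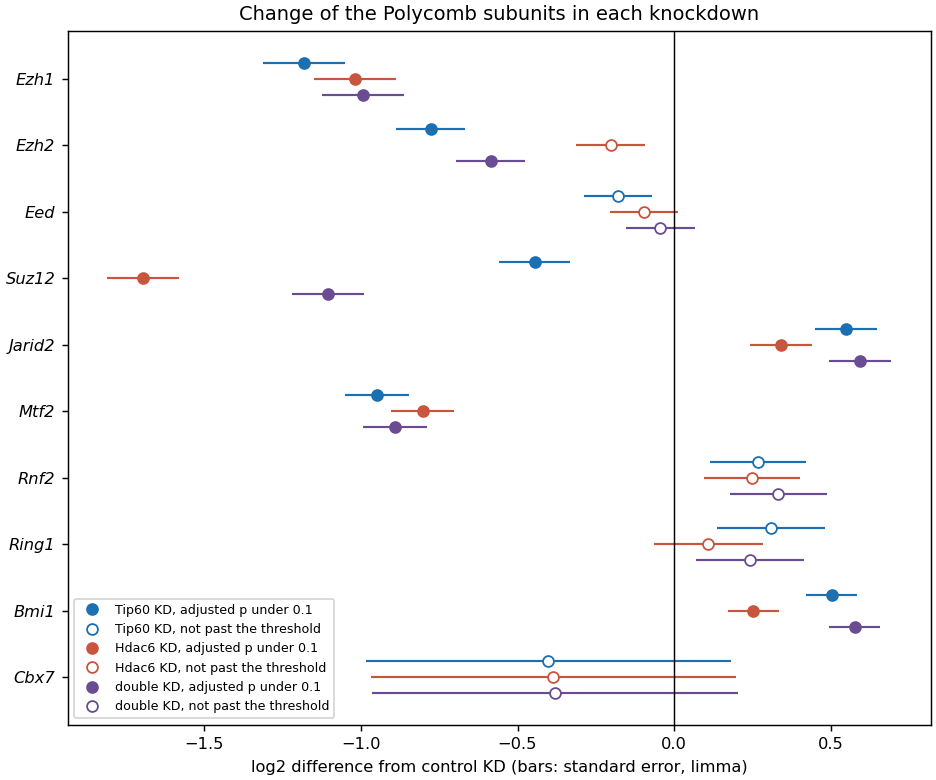
Log2 difference from control KD (x axis) of the lead probe of each subunit (y axis) for each of the 3 knockdowns, with bars of 1 standard error from the limma fit and filled points at an adjusted p under 0.1. Suz12 in Hdac6 KD lies farthest from 0 at -1.70, and the bars of Cbx7 are the widest.

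Among the PRC1 subunits, Bmi1 was called in all 3 knockdowns, and the ubiquitin ligases Rnf2 and Ring1 and the chromodomain protein Cbx7 were called in none. Bmi1 (also named Pcgf4) read -1.38 and -1.50 on the control arrays, -0.97 and -0.90 after Tip60 depletion, -1.16 and -1.22 after Hdac6 depletion, and -0.84 and -0.89 after both (probe on chr2:18607531-18607590, plus strand). The control arrays lay below all knockdown arrays, and the Hdac6 KD arrays lay between those of control KD and those of the other knockdowns. The log2 differences were 0.50, 0.25 and 0.58 (SE 0.08 each) for Tip60, Hdac6 and double depletion, or 142%, 119% and 149% of control (adjusted p of 0.00627, 0.0794 and 0.00621, limma).

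Bmi1 was a dim probe, well above background on all 8 arrays but under the 75th percentile, and a second Bmi1 probe was at the floor on all 8 arrays. The call in Hdac6 KD was lost without any 1 of the 8 arrays (differences of 0.19 to 0.31, adjusted p of 0.104 to 0.259). Set against Hdac6 KD, Bmi1 was higher by 0.25 in Tip60 KD (adjusted p = 0.0945, limma) and by 0.32 in double KD (adjusted p = 0.0849, limma). Each of these calls was also lost without any 1 array (adjusted p of 0.104 to 0.314 and of 0.111 to 0.315).

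Rnf2, the main H2A ubiquitin ligase of ESCs, read 3.21 and 3.00 on the control arrays, 3.45 and 3.30 after Tip60 depletion, 3.48 and 3.23 after Hdac6 depletion, and 3.60 and 3.28 after both (probe on chr1:153316987-153317046, minus strand). In each knockdown both arrays were above both control arrays, and slide A was above slide B in every group. The differences were 0.27 (95% interval -0.11 to 0.65), 0.25 (-0.13 to 0.63) and 0.33 (-0.05 to 0.71), with adjusted p of 0.251, 0.327 and 0.178 (limma). Once the slide was a block, which takes the distance between slides out, all 3 were called (adjusted p of 0.0141, 0.0235 and 0.00799). The differences in Tip60 KD and double KD were also called with quantile normalization (adjusted p of 0.0851 and 0.0460) and with the deposited series values (0.0585 and 0.0531).

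Ring1, the paralog of Rnf2, was dim and spread between the control arrays. It read -1.35 and -1.87 on the control arrays, -1.26 and -1.35 after Tip60 depletion, -1.44 and -1.56 after Hdac6 depletion, and -1.34 and -1.39 after both (probe on chr17:34158164-34158223, minus strand). Each knockdown overlapped with control KD, whose array B, the array with the fewest spots above background, was the lowest of all. The differences were 0.31 (95% interval -0.12 to 0.73), 0.11 (-0.32 to 0.53) and 0.24 (-0.18 to 0.67), with adjusted p of 0.242, 0.729 and 0.383 (limma). Without control KD array A, which leaves array B alone in the control, the differences were 0.57, 0.37 and 0.50 and all 3 were called (adjusted p of 0.0248, 0.0947 and 0.0460). In the blocked fit only the Tip60 KD difference was called (adjusted p = 0.0889).

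Cbx7, the main chromodomain subunit of PRC1 in ESCs, was set apart more by slide than by group. Its lead probe (chr15:79746240-79746299, minus strand) read 1.48 and 0.26 on the control arrays, 0.88 and 0.06 after Tip60 depletion, 1.01 and -0.04 after Hdac6 depletion, and 0.91 and 0.08 after both. Every array of slide A was above every array of slide B, and the groups overlapped. The log2 differences were -0.40, -0.39 and -0.38 (SE 0.58 each), with adjusted p of 0.668, 0.715 and 0.698 (limma). Within slides they were -0.60, -0.47 and -0.57 on slide A and -0.21, -0.30 and -0.19 on slide B, and with the slide as a block all 3 were called (adjusted p of 0.0264, 0.0364 and 0.0354).

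A second Cbx7 probe, chr15:79748605-79748664, matched to a cDNA clone, went the other way on both counts. It read -2.21 and -1.64 on the control arrays, -1.91 and -1.51 after Tip60 depletion, -1.93 and -1.48 after Hdac6 depletion, and -1.90 and -1.33 after both, so that slide B was above slide A. The differences from control KD were 0.21, 0.22 and 0.31 (adjusted p of 0.660, 0.687 and 0.526, limma), and all 3 were called with the slide as a block (adjusted p of 0.0409, 0.0450 and 0.0129). No direction is given for Cbx7, since its probes differ in it.

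**Figure D3:**
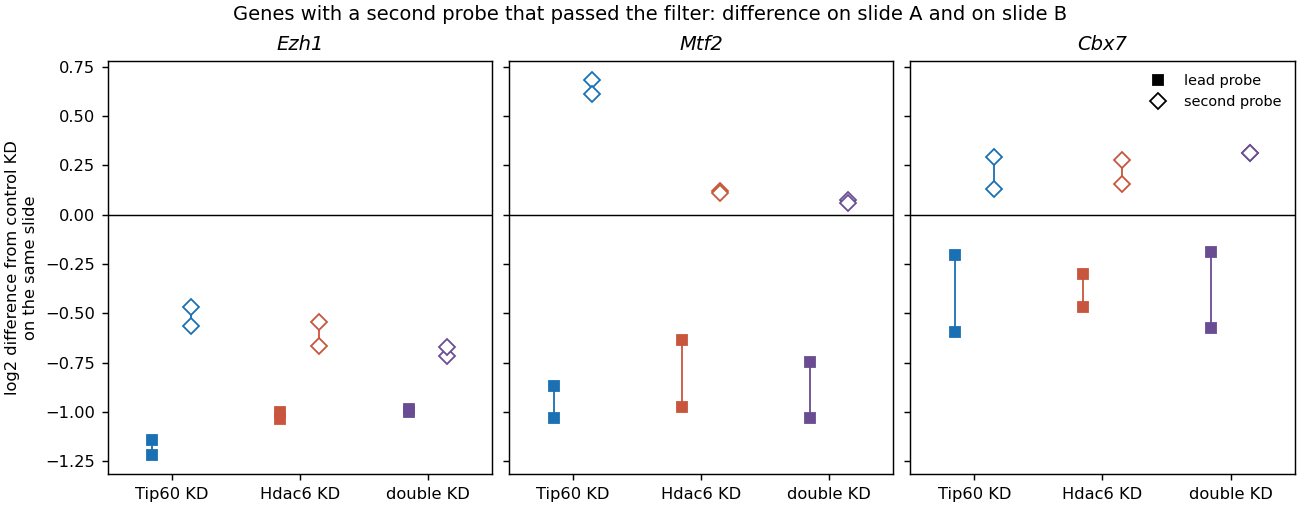
Log2 difference from control KD of the same slide (y axis) for the lead probe (filled squares) and the second probe (open diamonds) of Ezh1, Mtf2 and Cbx7 in the 3 knockdowns (x axis), 1 point for each slide. Both Ezh1 probes lie below 0 throughout, while the probes of Mtf2 and of Cbx7 lie on opposite sides of 0.

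Direct comparisons between the knockdowns called few subunits. Between double KD and Tip60 KD, 1 of 10 was called (Suz12), against 4.73% of all probes. Between double KD and Hdac6 KD, 2 of 10 were called (Suz12 and Bmi1), against 10.2% of all probes. Between Tip60 KD and Hdac6 KD, 3 of 10 were called (Suz12, Bmi1 and Ezh2), against 23.9%. With the slide as a block the counts were 3, 4 and 5, beside 27.6%, 29.3% and 42.4% of all probes, and the genes added were Ezh1 and Ezh2 between double KD and Tip60 KD (differences of 0.19 and 0.19), Ezh2 and Jarid2 between double KD and Hdac6 KD (-0.38 and 0.25), and Ezh1 and Jarid2 between Tip60 KD and Hdac6 KD (-0.16 and 0.21).

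The interaction term of the fit asks whether the change in double KD differs from the single knockdown changes added together. It was called for 3 of 10 subunits, Ezh1, Suz12 and Mtf2, against 23.3% of all probes, so the count is near the share over all probes. At the lead probe of each of the 3 the signal in double KD was higher than the sum of the single changes would give. The term was 1.21 (SE 0.19) for Ezh1, 1.04 (SE 0.16) for Suz12 and 0.86 (SE 0.14) for Mtf2 on the log2 scale (adjusted p of 0.0151, 0.0154 and 0.0177, limma). On slide A it was 1.27, 1.01 and 0.97 and on slide B 1.14, 1.06 and 0.75. The second Ezh1 probe gave a smaller term of the same sign (0.43, SE 0.12, adjusted p = 0.0721, limma). The second Mtf2 probe gave a term of the opposite sign (-0.70, SE 0.36, adjusted p = 0.264, limma), which was called with the slide as a block (adjusted p = 0.00233). At the lead probes of Ezh1 and Mtf2 the signals in double KD and in each single knockdown did not differ past the threshold, with differences of 0.19 and 0.06 from Tip60 KD and 0.03 and -0.09 from Hdac6 KD. For Suz12 the double KD lay between the single knockdowns. Hdac6 itself was less depleted in double KD (27.3% of control) than in Hdac6 KD (17.8% of control), a log2 difference of 0.62 (SE 0.07, adjusted p = 0.0139, limma), and the part of this in the interaction was not tested.

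With the slide as a block the interaction was called for 7 of 10 subunits, beside 47.7% of all probes. The genes added were Ezh2 (0.39, adjusted p = 0.0117), Jarid2 (-0.29, adjusted p = 0.0539), Eed (0.23, adjusted p = 0.0826) and Cbx7 (0.41, adjusted p = 0.0932).

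**Figure D4:**
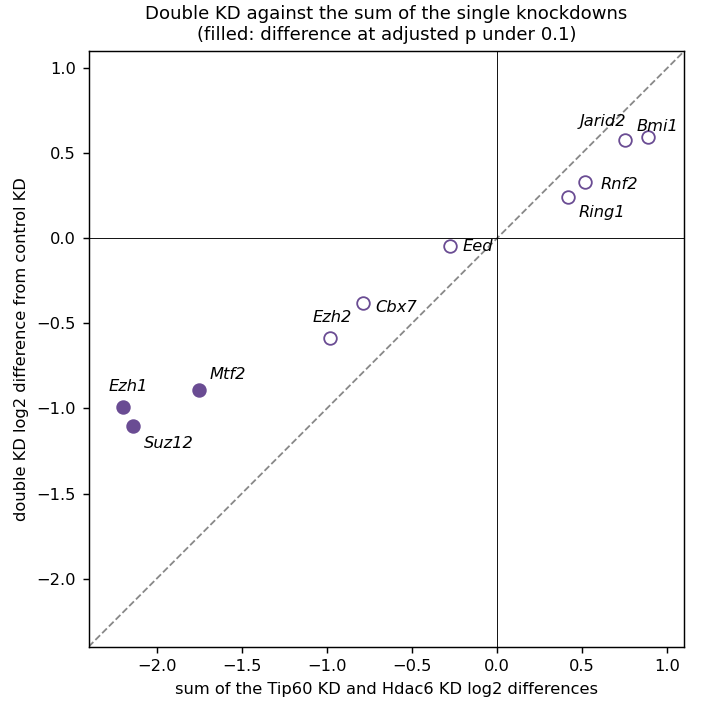
Log2 difference of double KD from control KD (y axis) against the sum of the log2 differences of Tip60 KD and Hdac6 KD (x axis) for the lead probes of the 10 subunits, with a dashed line where both are equal and filled points where they differ at an adjusted p under 0.1. Ezh1, Suz12 and Mtf2 lie above the line by 1.21, 1.04 and 0.86. The control arrays enter both axes.

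By Pearson's r over the 8 arrays, the genes whose level followed Suz12 most closely were Coq8a (r = 0.995), Nek1 and Pgam2 (0.987 each), Nadsyn1 (0.986) and LOC547349 (0.985), out of 22388 probes compared. The 8 arrays share 2 slides and 4 groups, and these values are a description.

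The other genes of the Polycomb system were described by gene lists, whose counts stand beside the shares of all probes called: 40.6% for Tip60 KD, 30.0% for Hdac6 KD and 33.8% for double KD, or 61.0%, 53.4% and 55.9% with the slide as a block. Of the 7 other PRC2 subunits, all were above background, and 2 passed the threshold after Tip60 depletion (1 higher, 1 lower), 4 after Hdac6 depletion (1 higher, 3 lower) and 3 after both (1 higher, 2 lower), with list medians of -0.14, -0.23 and -0.21. Epop, an elongin-binding PRC2 accessory subunit of ESCs, rose by 2.41, 1.38 and 2.12 on the log2 scale, in the same order (SE 0.10 each), and these were the largest rises of any gene on the PRC2 lists. The histone chaperone Rbbp4 fell in all 3, with differences of -0.52, -0.49 and -0.38 (SE 0.08 each). Its paralog Rbbp7 fell in Hdac6 KD (-0.92) and double KD (-0.77) and differed by -0.14 in Tip60 KD, where it was not called (SE 0.11 each). Phf1, a paralog of Mtf2, fell in Hdac6 KD (-0.64, SE 0.21). Its mean level was -2.01 in control KD and -2.65 in Hdac6 KD, close to the floor of -2.71. The blocked fit called 3 genes of this list in Tip60 KD (1 higher, 2 lower), 6 in Hdac6 KD (2 higher, 4 lower) and 5 in double KD (1 higher, 4 lower). The shares of the list called without the block lay on both sides of those over all probes.

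Of the 23 other PRC1 subunits, 22 were above background (Cbx8 was not), and the calls ran in both directions. Tip60 KD had 8 (4 higher, 4 lower), Hdac6 KD had 8 (3 higher, 5 lower) and double KD had 6 (5 higher, 1 lower), with medians of -0.10, -0.02 and -0.08. Of 22 genes tested, the 8 called in Tip60 KD and the 6 in double KD are a smaller share than over all probes. The variant PRC1 subunit Bcor and its paralog Bcorl1 rose in all 3 knockdowns, Bcor by 0.60, 1.06 and 0.71 (SE 0.15 each) and Bcorl1 by 1.09, 0.40 and 0.96 (SE 0.07 each). Their partner Pcgf1 fell in all 3, with differences of -0.43, -0.60 and -0.29 (SE 0.10 each). L3mbtl2 and the Polyhomeotic subunit Phc1 rose in Tip60 KD (0.57 and 0.55) and double KD (0.56 and 0.64), and Kdm2b, the CpG-binding subunit, rose in Hdac6 KD (0.50) and double KD (0.38). For Phc1 the value in Tip60 KD rests on array B alone, since array A had no usable spot.

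Further PRC1 genes were called in 1 knockdown in the fit without the block. In Tip60 KD, Cbx6 (-0.72) and Phc2 (-0.54) fell, and in Hdac6 KD, Pcgf5 (-0.66) fell. With the slide as a block Cbx6 was also called in double KD (adjusted p = 0.0250), Phc2 in Hdac6 KD and double KD (0.0769 and 0.0222) and Pcgf5 in Tip60 KD and double KD (0.0296 and 0.0384), all lower. The blocked calls on the list were 15 (6 higher, 9 lower), 13 (6 higher, 7 lower) and 11 (6 higher, 5 lower), so the excess of higher calls in double KD was not seen there. Without some of the arrays fewer genes of this list were called in each of the 3 knockdowns. The share of all probes called was also lower in these runs.

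Of 7 enzymes and cofactors that oppose Polycomb marks, all above background, 4 passed the threshold after Tip60 depletion (2 higher, 2 lower), 2 after Hdac6 depletion (1 higher, 1 lower) and 1 after both (higher). Over all probes 40.6%, 30.0% and 33.8% were called, so the counts in Hdac6 KD and double KD are a smaller share. The deubiquitinase Bap1 rose in Tip60 KD (0.36) and double KD (0.32), while its cofactor Asxl2 fell in Tip60 KD (-0.60) and its cofactor Asxl1 in Hdac6 KD (-0.31). The H2A deubiquitinase Usp16 rose in Tip60 KD (0.32) and Hdac6 KD (0.36), and Mysm1 fell in Tip60 KD (-0.25). The list medians were 0.03, 0.14 and 0.12. The demethylases of the methylated K27 mark, Kdm6a and Kdm6b, were not called without the block, with differences of 0.13, 0.24 and 0.12 for Kdm6a and of 0.03, 0.00 and -0.02 for Kdm6b. Kdm6a was called in Hdac6 KD with the slide as a block (adjusted p = 0.0221). In the blocked fit 5 genes were called in Tip60 KD (2 higher, 3 lower), 4 in Hdac6 KD (3 higher, 1 lower) and 3 in double KD (all higher). The counts in all 3 knockdowns fell without some of the arrays, and so did the share of all probes called.

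The H3K4 methyltransferase subunits, of the Trithorax group that counters Polycomb silencing, were called higher more often than lower. Of 12 genes, all above background, 7 passed the threshold after Tip60 depletion (5 higher, 2 lower), 2 after Hdac6 depletion (both higher) and 5 after both (all higher), with medians of 0.32, 0.10 and 0.24. The 2 of 12 called in Hdac6 KD are a smaller share than over all probes. Setd1b, a catalytic subunit, rose by 1.91, 1.85 and 2.05 (SE 0.09 each), and Cxxc1, which brings the Setd1 complexes to CpG islands, rose by 0.64, 0.61 and 0.50 (SE 0.09 each). The core subunits Rbbp5 and Wdr5 rose in Tip60 KD (1.04 and 0.58) and double KD (0.70 and 0.60) and differed by 0.11 and -0.02 in Hdac6 KD, where they were not called. Men1 rose in Tip60 KD (0.40) and double KD (0.33), and Ash2l (-0.47) and Kmt2c (-0.44) fell in Tip60 KD. The fit with the slide as a block called 8 genes in Tip60 KD (6 higher, 2 lower), 6 in Hdac6 KD (4 higher, 2 lower) and 8 in double KD (6 higher, 2 lower).

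**Figure D5:**
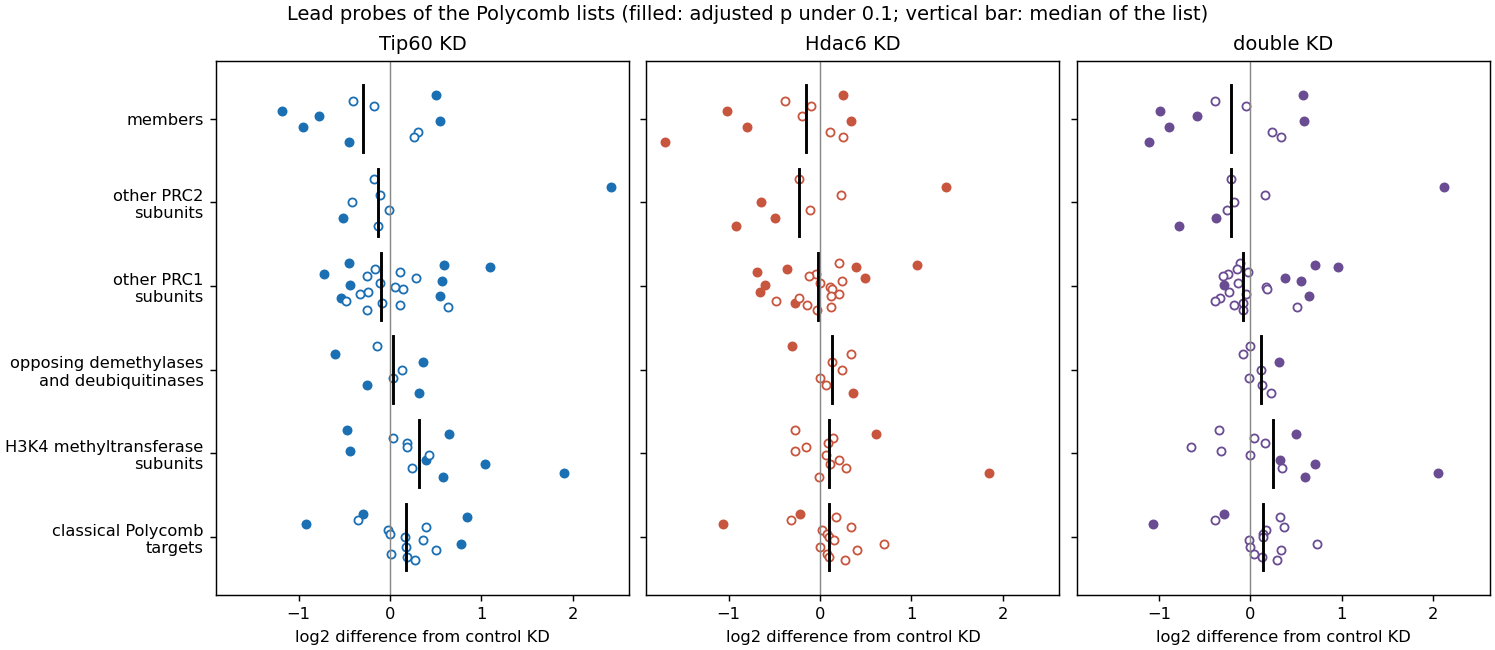
Log2 difference from control KD (x axis) of the lead probe of every gene above background in the 6 lists (y axis), 1 panel for each knockdown, with filled points at an adjusted p under 0.1 and a vertical bar at the median of each list. Epop stands apart among the other PRC2 subunits at 2.41 in Tip60 KD, and Setd1b among the H3K4 methyltransferase subunits at 1.91.

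Of 34 developmental regulators known as Polycomb targets in ESCs, 19 were not above background by the filter, among them Cdx2, Gata6, T and 7 of the Hox genes, and 15 were tested. Tip60 KD had 4 calls (2 higher, 2 lower), Hdac6 KD had 2 (both lower) and double KD had 2 (both lower), with medians of 0.18, 0.09 and 0.14. All 3 counts are a smaller share of the 15 than over all probes. The T-box gene Eomes rose by 0.84 (SE 0.15) in Tip60 KD. The cardiac homeobox gene Nkx2-5 also rose there, and since it was at the floor on both control arrays, its difference of 0.78 (SE 0.28) is a lower bound. The cell cycle inhibitor gene Cdkn2a fell in all 3 knockdowns, with differences of -0.29, -0.22 and -0.29 (SE 0.08 each). With the slide as a block most calls were higher, with 9 in Tip60 KD (7 higher, 2 lower), 6 in Hdac6 KD (4 higher, 2 lower) and 7 in double KD (5 higher, 2 lower). These are also smaller shares of the 15 than the 61.0%, 53.4% and 55.9% of all probes called with that block. Of the higher calls in Tip60 KD, Nkx2-5 and Pax6 were at the floor on both control arrays. Pax7 and Hoxa9 were near it, with control means of -2.30 and -2.34, while Eomes, Nkx2-2 and Wnt1 had -1.64, -1.21 and -1.05. Leaving out some arrays lowered the count in all 3 knockdowns, and leaving out others raised it in Tip60 KD and double KD. The share of all probes called was lower whichever array was left out.

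Markers of other cell types were read on the same arrays. In bulk RNA, fewer cells of a type and less RNA for each cell cannot be told apart. The summed scaled signal of the 6 neural markers ranged from 2.57 to 2.75 on the control arrays, 4.79 to 5.04 after Tip60 depletion, 2.99 to 3.30 after Hdac6 depletion and 4.45 to 4.72 after both, and all 6 passed the filter. Tubb3 rose most (1.96, 0.52 and 1.76), and the sum of the other 5 ranged from 1.82 to 2.15, 2.24 to 2.38, 1.96 to 2.42 and 2.17 to 2.47 in the same order. Pax6 was at the floor on both arrays of every group but Tip60 KD. The 6 fibroblast markers summed to 2.17 to 2.38, 2.81 to 3.27, 2.24 to 2.33 and 2.92 to 3.22 in the same order, with 3 of 6 above background. The 7 primitive endoderm markers summed to 4.51 to 4.77, 4.96 to 5.31, 4.85 to 4.95 and 5.32 to 6.15 (3 above background), the 5 mesoderm markers to 1.22 to 1.52, 1.78 to 1.85, 1.59 to 1.71 and 1.59 to 1.64 (2 above background), and the 6 trophectoderm markers to 2.56 to 3.19, 2.82 to 3.06, 2.46 to 2.64 and 2.84 to 2.94 (2 above background). The largest terms of the fibroblast, primitive endoderm and trophectoderm sums were Thy1, Lama1 and Krt18. Krt18 differed from control KD by -0.24, -0.32 and -0.19, while Krt8 rose by 1.28, 0.76 and 1.16. Hand1 did not pass the filter but entered the trophectoderm sum, with a mean level of -1.51 in control KD and -2.71 in each knockdown. Since it met the filter's conditions on fewer than 2 arrays, its control mean does not rest on both control arrays, and no change is read from it. The part of these other cell types in the changes of the Polycomb subunits was not tested.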

How the data were processed

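Total RNA of 8 cultures was labelled with Cy3 and hybridised to 1-colour Agilent mouse arrays. Per the file headers, the deposited intensity values came from Agilent Feature Extraction 10.7.1.1, which subtracted background and detrended each array, and probe positions are on mm9. The authors also deposited log2 values, whose between-array normalization is not given in the sources used here.

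Processed signals were averaged over the spots of a probe, without outlier spots, divided by the 75th percentile of the array, floored at 0.153 of it and log2 transformed. Probes had to exceed the floor, and be flagged well above background, on 2 or more of the 8 arrays (22594 of 39429 kept). All kept probes were fitted with limma 3.58.1 (R 4.3.3; lmFit and eBayes, 4 residual and 1.90 prior degrees of freedom, tested on simulated data) with no block, since the study's methods name none, and called at a Benjamini-Hochberg adjusted p under 0.1. The number of arrays limits the precision.

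Replicate letter, slide and scan coincide, and the letters pair the arrays: differences between slides A and B correlated at r = 0.644 to 0.787 over 22389 probes in all 6 pairs of groups. Values with the slide as a block stand beside the results it changes. Other alternatives were normexp background (offset 50), quantile normalization, missing values in place of the floor, the authors' log2 values, no filter, 1 probe for each gene, only the arrays compared, and leaving out each array.

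The members and lists were chosen with earlier results of these data known. Named were all members with every probe, Kat5 and Hdac6, up to 6 genes with the largest difference among those called on each list, and the 5 genes most like Suz12. Chosen after their values were seen were Kdm6a, Kdm6b, Cbx8, Tubb3, Dppa5a, Pou5f1, Thy1, Lama1, Krt8, Krt18 and Hand1. Some genes that this rule takes are not reported here. Promoters were searched by letters in Python 3.11.15.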

Additional observations from a re-analysis of the deposited data

Results flagged for a closer look

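The change in double KD differed from the sum of the single knockdown changes at the lead probes of 3 of 10 subunits by the interaction term of the limma fit, against 23.3% of all probes. The count is near that share, so it does not set the subunits apart from the other probes. The term was 1.21 for Ezh1, 1.04 for Suz12 and 0.86 for Mtf2 on the log2 scale (adjusted p of 0.0151, 0.0154 and 0.0177), positive on both slides for each lead probe and called in all 15 alternatives that could be run. The second probe gave 0.43 for Ezh1 (adjusted p = 0.0721, limma) and, with the opposite sign, -0.70 for Mtf2 (adjusted p = 0.264, and 0.00233 with the slide as a block). The control KD arrays enter the term with the opposite sign to the single knockdowns, so the spread of the control arrays is part of it. These arrays also had the fewest spots well above background on their slides, and the part of this in the term was not tested.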

How the results depend on the processing

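Of the 17 calls of subunits against control KD, 14 were kept in direction and call in all 16 alternatives, and the calls of Suz12 in Tip60 KD and of Jarid2 and Bmi1 in Hdac6 KD were lost in some. No called subunit turned its direction. With the replicate block the counts of called subunits were 10 in Tip60 KD, 8 in Hdac6 KD, 3 between double KD and Tip60 KD, 4 between double KD and Hdac6 KD, 5 between Tip60 KD and Hdac6 KD and 7 for the interaction. In the same order, 61.0%, 53.4%, 27.6%, 29.3%, 42.4% and 47.7% of all probes were called with that block. Between double KD and Tip60 KD the count was 0 with the normexp background, without the filter on dim probes and with only the arrays compared, where 1 of 22594, 1095 of 39429 and 0 of 22594 probes were called in all. Between double KD and Hdac6 KD it was 1 with the normexp background and with the series values, where 1342 and 1186 of 22594 probes were called. It was 0 with only the arrays compared, where 0 of 22594 probes were called in all. Leaving out each array in turn gave 5 to 6 calls in Tip60 KD, 3 to 4 in Hdac6 KD, 6 to 7 in double KD, 0 to 0 between double KD and Tip60 KD (from 0 to 15 probes of the whole array), 0 to 1 between double KD and Hdac6 KD, 1 to 2 between Tip60 KD and Hdac6 KD and 3 to 3 for the interaction. A group left with 1 array was assumed to vary like the others. The cause of these losses was not tested, beyond the fewer arrays.

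Subunits that were not called turned their sign in some alternatives. The Eed difference in double KD was 0.00288 with the normexp background, 0.081 with quantile normalization, 0.0829 with the series values and -0.11 to 0.0204 over the arrays left out. Over the arrays left out, Cbx7 ranged from -1.01 to 0.21 in Tip60 KD, -0.99 to 0.22 in Hdac6 KD, -0.99 to 0.23 in double KD and -0.20 to 1.01 for the interaction, and Ring1 from -0.15 to 0.37 in Hdac6 KD and -0.0204 to 0.50 in double KD. Probes near the floor, such as Ring1 and Bmi1 and, on the other lists, Phf1 and Bcorl1, carry the least signal over background.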
